A study of Mus musculus with 11 samples.

Results

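The genes described here are 9 genes of gluconeogenesis and glycogen metabolism, taken by name: Pcx, Fbp1, Gys1, Gbe1, Gaa, Ppp1r3b, Ppp1r3c and Ppp1r3g in liver, and Ugp2 in brown adipose tissue (BAT), a heat-producing fat. They are 8 of the 2500 genes in the liver table and 1 of the 2500 in the BAT table, of 4474 distinct genes in all, and each was analysed in 1 tissue. RNA was sequenced from Adcyap1r1 flox/flox mice, which the genotype labels spell Acypap1r1 floxed/floxed, so that both groups carried floxed alleles of Adcyap1r1, which encodes PAC1, a receptor for the neuropeptide PACAP. The control groups had received AAV-GFP and the Cre groups AAV-Cre, a virus encoding the recombinase that excises floxed sequence, in the preBötC (preBötzinger complex) of the brainstem, known for generating breathing rhythm. All mice had undergone a procedure labelled SEFL, and the series title names control of fear and of the metabolic response. Liver was represented by controls 7, 8 and 9 and Cre 10, 11 and 12, and BAT by controls 1 and 2 and Cre 4, 5 and 6. The labels give no age or sex, do not say that each library came from its own animal, and name no delivery of virus to liver or BAT. Adcyap1r1 is in neither table, so the deletion cannot be checked here.

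Liver releases glucose in the fasted state by making it from lactate, amino acids and glycerol (gluconeogenesis) and by breaking down glycogen, its glucose store. Pyruvate carboxylase and fructose-1,6-bisphosphatase catalyse irreversible steps of gluconeogenesis. Glycogen is built from UDP-glucose by glycogen synthase and the branching enzyme, is degraded in the cytosol by phosphorylase and in the lysosome by acid alpha-glucosidase, and its enzymes are switched by protein phosphatase 1, which targeting subunits hold on the glycogen particle.

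Each value is a z-score: for each gene the authors subtracted the mean over 6 libraries and divided by the SD, so a value says where a library lies for that gene and carries no level, depth or fold change. Sequencing depth is unknown. Several libraries stood apart as a whole. In liver, control 8 was highest for 56.4% and lowest for 21.2% of the 2500 genes, and the means of its T and NK cell (4 of 9 genes in the table), B and plasma cell (6 of 7), macrophage (2 of 10) and mitochondrially encoded genes (13 of 13) were 1.87, 1.98, 1.78 and 2.01, against -1.51 for hepatocyte genes (5 of 10: Alb, Apoa1, Apob, Cps1 and Tat). Cre 12 held means of 2.21 for skeletal muscle (13 of 14), 2.07 for adipocyte (7 of 9) and 1.70 for brown fat genes (6 of 7). Control 7 held 2.02 for Y-linked (4 of 4), 2.04 for male-biased (9 of 10) and -2.01 for female-biased liver genes (10 of 10), where the other libraries lay between -0.66 and 0.27, between -0.79 and 0.059, and between 0.22 and 0.81. None of 5 cholangiocyte genes was among the liver genes. Elovl3 stands on both the brown fat and the male-biased list. In BAT, control 1 was highest for 70.7% of genes and held means of 2.15 for T and NK cell (9 of 9), 1.73 for B and plasma cell (2 of 7), 1.89 for macrophage (6 of 10), 1.91 for cholangiocyte (4 of 5) and 2.21 for Y-linked genes (4 of 4). Hepatocyte genes (8 of 10) had a mean of 1.89 in BAT Cre 6. Of the brown fat genes Dio2 was the single one in the BAT table, with 2 of 9 adipocyte genes, 1 of 10 female-biased and 0 of 10 male-biased genes, so the tissue label could not be checked by level. For BAT, 1 more library that entered the authors' scaling is not analysed here. Because these are bulk tissue samples, fewer cells of a type and less RNA per cell cannot be told apart.

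Pcx and Fbp1, the gluconeogenic enzymes in the liver table, were higher in every Cre liver than in every control liver, as were 10.3% of the 2500 liver genes. Pcx encodes pyruvate carboxylase, which makes oxaloacetate from pyruvate in mitochondria (chromosome 19, 4510472 to 4621752, plus strand, GRCm38). Its z-scores in controls 7, 8 and 9 were -0.026, -2.10 and 0.037, and those in Cre 10, 11 and 12 were 0.71, 0.45 and 0.93. The groups did not overlap: control 8 lay far below the rest, and control 9, the highest control, was 0.41 below the lowest Cre library. Fbp1 encodes fructose-1,6-bisphosphatase (chromosome 13, 62864753 to 62888282, minus strand). Fbp1 had -0.30, -2.00 and 0.044 in the controls and 0.65, 0.52 and 1.09 in the Cre libraries. It repeated the order of Pcx among the Cre libraries, with Cre 12 highest and Cre 11 lowest. The Cre mean was 0.70 ± 0.24 (SD, n = 3) for Pcx and 0.75 ± 0.30 (SD, n = 3) for Fbp1, and the controls spread more widely, at -0.70 ± 1.22 and -0.75 ± 1.10. Cre minus control was 1.39 for Pcx, with a 95% interval from -0.60 to 3.38, and 1.51 for Fbp1, with an interval from -0.31 to 3.33. Neither passed: limma's gene-wise linear model with Benjamini-Hochberg adjustment over the 2500 liver genes gave an adjusted p of 0.623 for both, and an exact permutation of the 20 possible groupings, two-sided, gave p = 0.1 for each, the smallest possible value. Without control 8 the differences were 0.69 for Pcx and 0.89 for Fbp1, with intervals from 0.11 to 1.27 and from 0.066 to 1.70 and an adjusted p of 0.527 for both. Without both control 8 and Cre 12 they were 0.57 (interval -0.017 to 1.16) for Pcx and 0.72 (interval -0.085 to 1.52) for Fbp1, at a limma adjusted p of 0.752 for both. Control 8 was also the library with the low hepatocyte and high lymphocyte genes, whose part in these differences was not tested beyond leaving it out.

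**Figure D1:**
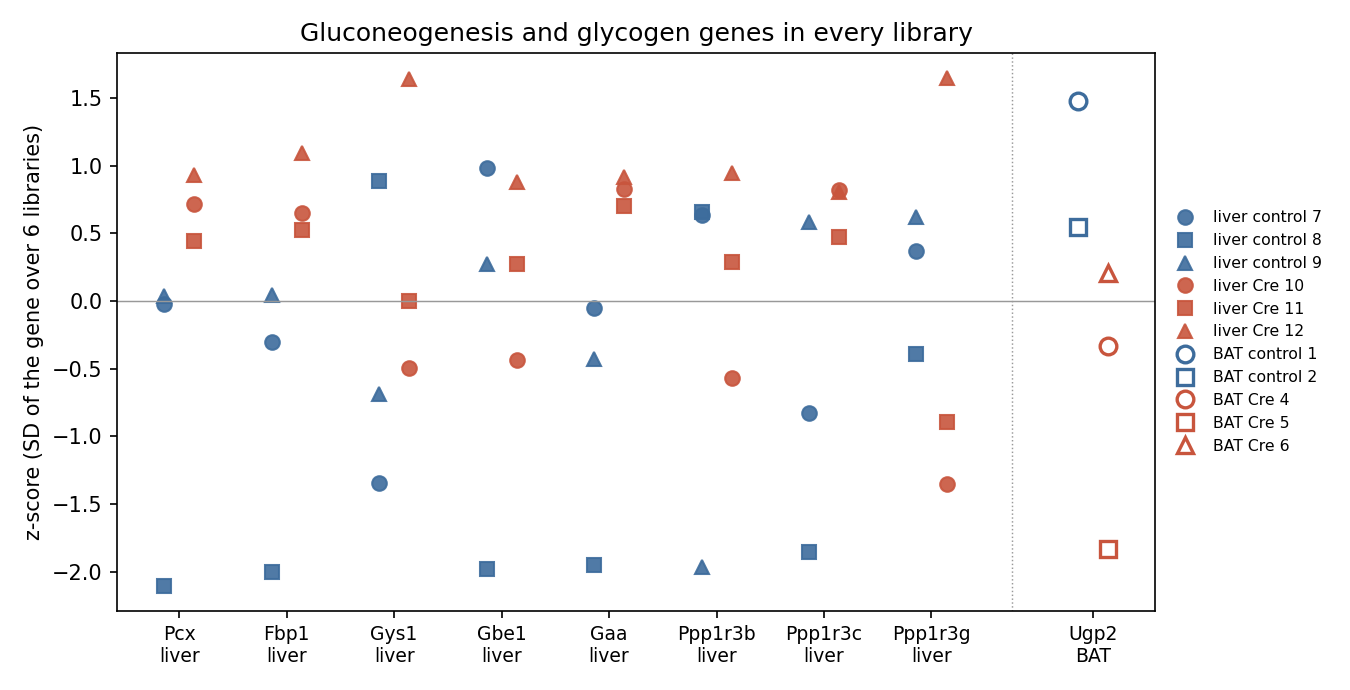
The z-score of each gene (vertical axis, in SD of that gene over 6 libraries) in every library, with blue for control and red for Cre, filled symbols for liver and open symbols for BAT. Pcx, Fbp1 and Gaa have all Cre livers above all control livers, Ugp2 has all Cre BAT libraries below both controls, and the blue squares near -2 are liver control 8.

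Gaa had the widest gap between the groups. It encodes acid alpha-glucosidase, the lysosomal enzyme that degrades glycogen and whose loss causes Pompe disease (chromosome 11, 119267887 to 119285454, plus strand). Controls 7, 8 and 9 had -0.055, -1.95 and -0.43, and Cre 10, 11 and 12 had 0.82, 0.70 and 0.91, so that the lowest Cre library lay 0.75 above the highest control. The Cre libraries were close together at 0.81 ± 0.11 (SD, n = 3), and the control mean was -0.81, with control 8 far below controls 7 and 9. Cre minus control was 1.63 (standard error 0.58, 95% interval 0.0070 to 3.24), with an unadjusted limma p of 0.0494 that became 0.623 after adjustment over all liver genes. That unadjusted threshold was passed by 144 liver genes, or 5.76%. Without control 8 the difference was 1.06 (interval 0.54 to 1.57, adjusted p 0.403 in limma), and without both control 8 and Cre 12 it was 1.01 (interval 0.15 to 1.86, adjusted p 0.746). Of 17 lysosomal hydrolase genes listed, Gaa among them, 5 were in the liver table. Ctsd, the protease cathepsin D, had -2.11 in control 8 and 0.42, 0.49 and 0.88 in the Cre libraries, but 0.55 in control 7. Glb1, lysosomal beta-galactosidase, had -0.91, -1.64 and 0.49 in the controls and 0.75, 0.010 and 1.30 in Cre. Arsa, arylsulfatase A, had 1.89, -0.93 and -0.45 in the controls and -0.80, -0.44 and 0.73 in Cre, with its highest value in control 7. The Cre mean was the higher one for 4 of the 5, Gaa was the single gene of the list with non-overlapping groups, and none passed the adjusted threshold.

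Of the enzymes that build the glycogen chain, Gys1 and Gbe1 were in the liver table, and the groups overlapped for both. Gys1 encodes the glycogen synthase of muscle and most other tissues, whereas hepatocytes mainly use the product of Gys2 (Gys1 lies on chromosome 7, 45434844 to 45456619, plus strand). For Gys1, controls 7, 8 and 9 had -1.34, 0.88 and -0.69, and Cre 10, 11 and 12 had -0.50, 0.0034 and 1.64. It was highest in Cre 12 and next in control 8, the libraries with high muscle and fat genes and with high immune genes, a relation that was not tested. Cre minus control was 0.77 with a standard error of 0.92 and a limma adjusted p of 0.681. It was 0.14 without Cre 12 and 1.40 without control 8. Exons of Gys1 share 310 bases with Ruvbl2 on the opposite strand, and the labels do not say whether strand was kept, so some reads may belong to that gene. Gbe1 encodes the branching enzyme (chromosome 16, 70313949 to 70569716, plus strand). Gbe1 had 0.98, -1.98 and 0.28 in the controls and -0.44, 0.28 and 0.88 in the Cre libraries. Control 8 was lowest and control 7 highest, so the group means differed by 0.48 with a standard error of 0.97, at a limma adjusted p of 0.783. Without control 8 the sign turned, to -0.39.

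The 3 targeting subunits of protein phosphatase 1 each had a profile of its own. Ppp1r3c encodes PTG, found in liver, muscle and fat (chromosome 19, 36731731 to 36736653, minus strand). For Ppp1r3c, controls 7, 8 and 9 had -0.83, -1.85 and 0.58, and Cre 10, 11 and 12 had 0.82, 0.47 and 0.81. Only control 9 reached into the Cre range, 0.11 above Cre 11. Cre minus control was 1.40 (95% interval -0.59 to 3.38, limma adjusted p 0.623), and 0.82 without control 8. Ppp1r3b encodes GL, the subunit known for liver (chromosome 8, 35375739 to 35388139, plus strand). Ppp1r3b had 0.64, 0.66 and -1.96 in the controls and -0.57, 0.29 and 0.95 in the Cre libraries. Here control 9 was the low library, and the difference of 0.44 (interval -2.26 to 3.15, limma adjusted p 0.798) became -0.43 without it. Ppp1r3g encodes a subunit described in mouse liver as linked to feeding (chromosome 13, 35958839 to 35970388, plus strand). Ppp1r3g had 0.37, -0.39 and 0.62 in the controls, -1.35 and -0.89 in Cre 10 and 11, and 1.65 in Cre 12. Cre 12 thus stood at the top while the other Cre libraries stood below every control, and the difference was -0.40 with all libraries (interval -3.12 to 2.32, limma adjusted p 0.816) and -1.32 without Cre 12. Of all 2500 liver genes, 17.4% had Cre 10 and 11 below every control. Of 7 targeting subunit genes listed, these 3 were in the liver table and Ppp1r3a, the muscle subunit, was in the BAT table.

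Counted together, 7 of the 8 liver genes had a higher Cre mean, where 39.6% of all 2500 liver genes did, 1 had a lower one (60.4%), and 3 of the 8 had all Cre above all control libraries, against the 10.3% above, and 12.3% of liver genes had all Cre below all control. For the 3, Pcx, Fbp1 and Gaa, control 8 was also the lowest library, a combination found in 7.92% of liver genes. The median difference was 1.08 over the 8 genes and -0.50 over all liver genes. No gene passed the adjusted threshold among the 8 or among all 2500 (0%), and 144 genes had an unadjusted limma p under 0.05. With variance moderation, on ranks, and with the libraries left out that are named here, the number passing in liver was also 0. Limma adjusted p-values of the 8 genes ranged from 0.623 to 0.816 with all libraries and no moderation. The smallest was 0.470 with moderation, for Pcx, Fbp1, Gaa and Ppp1r3c alike, and 0.0943 on ranks, for Pcx, Fbp1 and Gaa. Each was also the smallest value of any liver gene in that setting. On ranks that value was shared by every liver gene with non-overlapping groups, 565 genes or 22.6% of all 2500, so it repeats the non-overlap. Averaged over the 8 genes, controls 7, 8 and 9 had -0.070, -1.09 and -0.19, and Cre 10, 11 and 12 had 0.020, 0.23 and 1.11. Cre 10 and 11 thus lay near controls 7 and 9, and control 8 and Cre 12 formed the ends. Control 8 was lowest for 5 of the 8 genes (21.2% of all genes) and Cre 12 highest for 6 (17.2%). The difference of this mean was 0.90 with all libraries, 0.58 without control 8, 0.57 without Cre 12 and 0.25 without both control 8 and Cre 12. A higher Cre mean was found for 6 of the 8 without control 8 (55.6% of all genes) and for 7 without Cre 12 (36.4%). By group medians in place of means, 6 of the 8 were higher in Cre. The median difference was -0.35 for Ppp1r3b and 0.00011 for Gbe1, and the share of all liver genes by medians was not counted. Without control 8, Gys1 also had all Cre above all control libraries, and 15.9% of all genes did, a share that cannot fall when a library is left out.

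**Figure D2:**
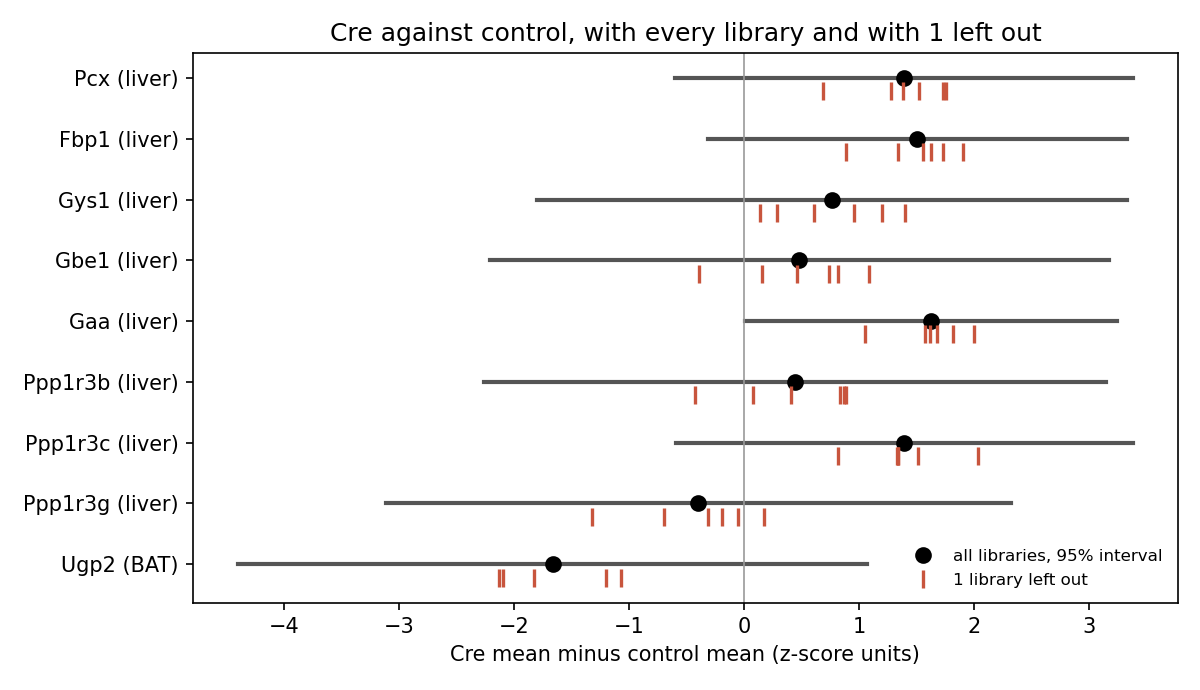
Cre mean minus control mean (horizontal axis, z-score units) for the 8 liver genes and for Ugp2 in BAT, with black points and bars for the estimate and its 95% interval and red ticks for the estimate with 1 library left out. All ticks lie above 0 for Pcx, Fbp1, Gaa, Ppp1r3c and Gys1 and below 0 for Ugp2, while Gbe1, Ppp1r3b and Ppp1r3g have ticks on both sides.

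Among themselves, the 8 liver genes formed a closer set and a looser remainder by the root mean square difference of z-scores over the 6 libraries. Pcx and Fbp1 differed by 0.14, Pcx and Gaa by 0.23, Fbp1 and Gaa by 0.25, and Fbp1 and Ppp1r3c by 0.34. Gbe1 lay 0.64 from Pcx. Gys1 and Ppp1r3b, at 1.01, were nearer to each other than to Pcx or Fbp1, from which they lay between 1.41 and 1.51. Ppp1r3b and Ppp1r3c, encoding subunits with the same role, were the most distant of the 28 pairs at 1.68. Genes outside the 8 lay closer still, such as Psap at 0.043 from Pcx and Abhd15 at 0.092 from Gaa. Pcx, Fbp1, Gaa, Ppp1r3c and Gbe1 had their lowest value in control 8, as did 21.2% of all liver genes. All genes were measured in the same 6 libraries, so these distances are a description and no test.

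**Figure D3:**
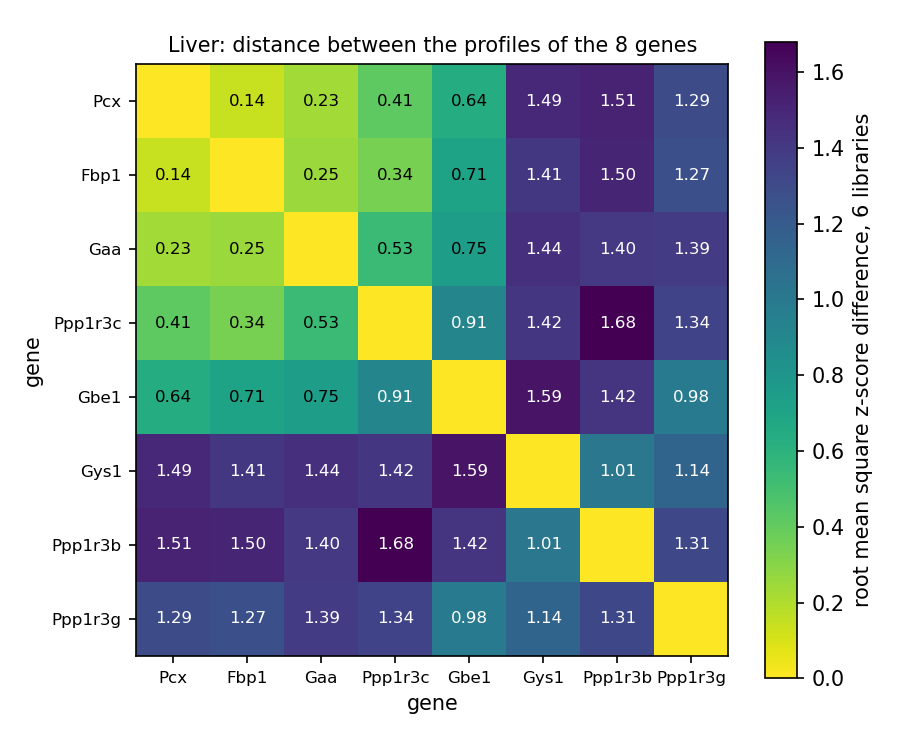
Root mean square difference of z-scores over 6 liver libraries for each pair of the 8 genes (rows and columns are genes, darker is farther). Pcx, Fbp1, Gaa and Ppp1r3c lie within 0.53 of each other, and Gys1, Ppp1r3b and Ppp1r3g lie at least 1.27 from all of these 4 genes.

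The promoters of those 4 genes are shown because their profiles were near each other among the 8. The 4 were thus picked from these same z-scores, and promoters of other genes with like profiles were not searched as a group. Shared regulation was not tested. RefSeq gives a window before the transcription start for 7 of the 8 liver genes (all but Ppp1r3b) and for Ugp2, 10 windows in all on GRCm38.p6. The stretches are printed 5′ to 3′ on the strand of the gene, up to 250 bases before the RefSeq start and without bases inside the annotated gene, and capitals mark the E-box CACGTG, a motif bound by basic helix-loop-helix proteins such as USF and TFEB. They lie at chr19:4510222-4510471 (plus strand), chr13:62888283-62888532 (minus), chr11:119267713-119267886 (plus) and chr19:36736654-36736854 (minus).
Pcx: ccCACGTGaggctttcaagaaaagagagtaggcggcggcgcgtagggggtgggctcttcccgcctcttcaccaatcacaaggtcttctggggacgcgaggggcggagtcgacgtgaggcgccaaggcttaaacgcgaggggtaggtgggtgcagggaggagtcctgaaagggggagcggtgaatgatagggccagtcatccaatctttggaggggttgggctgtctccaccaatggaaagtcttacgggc
Fbp1: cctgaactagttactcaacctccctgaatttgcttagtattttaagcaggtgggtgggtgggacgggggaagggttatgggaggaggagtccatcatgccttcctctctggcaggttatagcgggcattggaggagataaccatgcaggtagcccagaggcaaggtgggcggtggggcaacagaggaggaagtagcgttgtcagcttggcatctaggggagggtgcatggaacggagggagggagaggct
Gaa: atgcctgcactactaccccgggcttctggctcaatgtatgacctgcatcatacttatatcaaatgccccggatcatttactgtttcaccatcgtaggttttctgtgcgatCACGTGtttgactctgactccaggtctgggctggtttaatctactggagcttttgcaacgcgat
Ppp1r3c: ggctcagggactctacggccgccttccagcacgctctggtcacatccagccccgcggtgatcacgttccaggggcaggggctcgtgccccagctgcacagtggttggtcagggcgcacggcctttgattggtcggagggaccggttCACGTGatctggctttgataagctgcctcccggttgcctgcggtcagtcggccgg
Searched on both strands over the full 250 bases, CACGTG, which is its own reverse complement, was found once each before Pcx, Gaa and Ppp1r3c and in none of the other windows of the 9 genes, and 6.02% of 32851 promoter windows of the same length held it. The core of the cyclic AMP response element, TGACG, was found before Gaa and Ppp1r3g (17.8% of windows), and the FOXO motif GTAAACA in no window of the 9 genes (3.17% of windows). No motif match overlapped another. A second RefSeq window of Pcx, farther into the gene, held none of these motifs. In rat, the Pcx gene is known to use separate promoters in gluconeogenic tissue and in pancreatic islets, and the z-scores do not tell transcripts apart.

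Beside the 8 genes, the libraries at the ends of the scale also stood out for markers of cell types. In control 8, 4 of the 5 hepatocyte genes were at their lowest, as were Pcx, Fbp1, Gbe1, Gaa and Ppp1r3c, and all 13 mitochondrially encoded, 6 B and plasma cell and 4 T and NK cell genes were at their highest. In Cre 12, all 13 skeletal muscle and all 7 adipocyte genes were at their highest, as were Pcx, Fbp1, Gys1, Gaa, Ppp1r3b and Ppp1r3g. The hepatocyte mean lay between 0.34 and 0.49 in the Cre libraries and at 0.44 and -0.13 in controls 7 and 9. The adipocyte mean was -0.49 and -0.73 in Cre 10 and 11 and the muscle mean -0.50 and -0.52, with controls between -0.43 and -0.16 for the adipocyte and between -0.50 and -0.25 for the muscle mean. The part of these cell types in the values of the 8 genes was not tested.

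**Figure D4:**
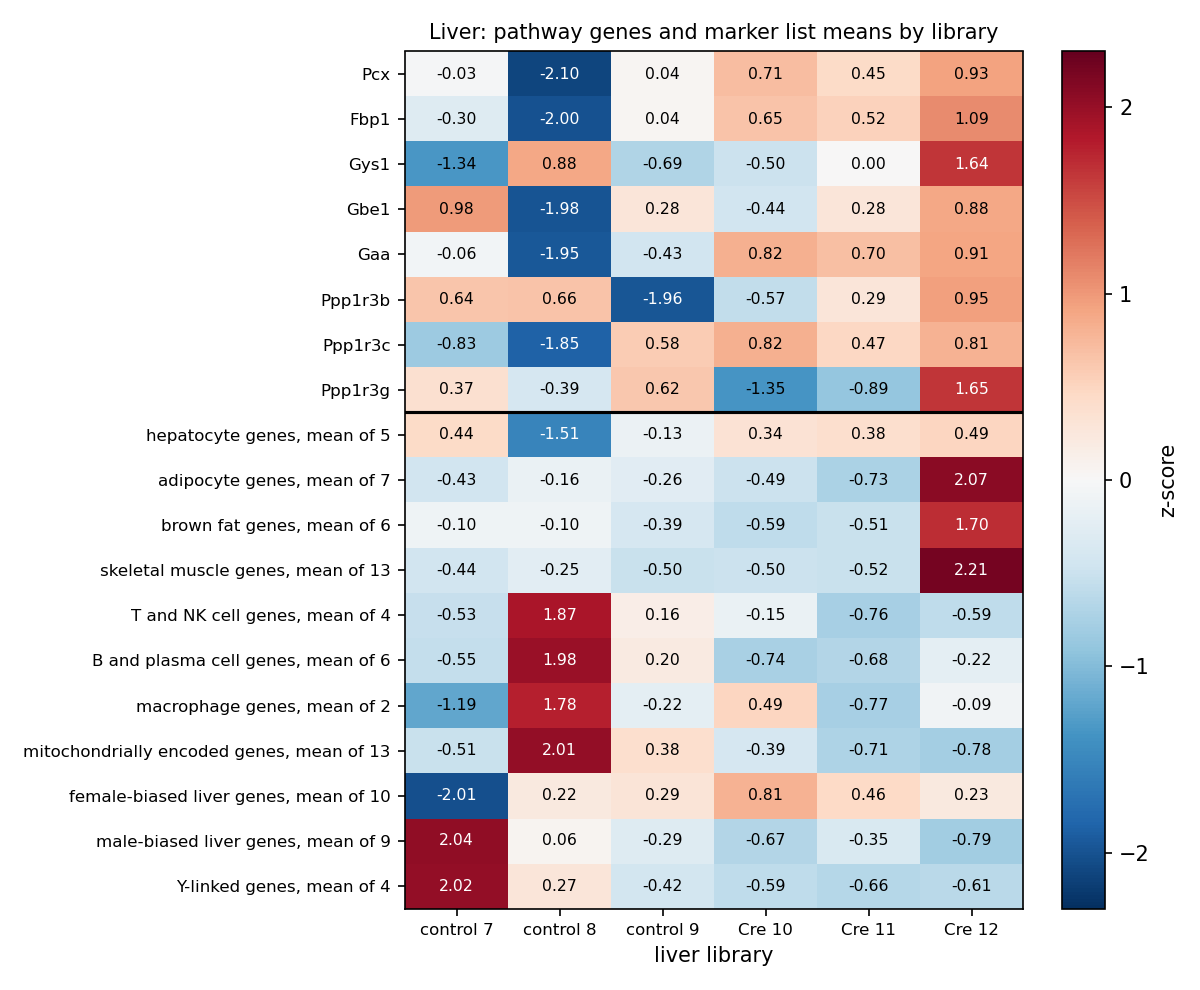
Z-scores (colour and printed values) of the 8 genes and, under the black line, mean z-scores of marker lists in the 6 liver libraries. Control 8 combines low values of 5 of the 8 genes and of hepatocyte genes with high immune and mitochondrially encoded genes, and Cre 12 combines values of at least 0.81 for all 8 genes with high fat and muscle genes.

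Other glycogen genes in the liver table did not separate the groups. Of 14 gluconeogenesis enzymes listed, Pcx and Fbp1 were in the table, and of 10 genes of glycogen breakdown Pygm, Gaa and Phkg1. Pygm, the muscle glycogen phosphorylase, had 2.06 in Cre 12, with every other library at 0.066 or less. Phkg1, the catalytic subunit of muscle phosphorylase kinase, was instead high in control 8, at 2.05, and between -0.81 and 0.36 elsewhere. Of 9 glycogen regulators 2 were in the table. Epm2a, which encodes the glycogen phosphatase laforin, had 1.01, -2.08 and 0.15 in the controls and -0.16, 0.49 and 0.59 in Cre, and Stbd1, a protein that binds glycogen and tethers it to membranes, 1.15, -1.77 and 0.57 and -0.43, -0.43 and 0.91. Both shared the low value in control 8 with Gbe1. Over all pathway lists, 13 further genes were in the liver table, 10 with a higher and 3 with a lower Cre mean, none with non-overlapping groups (22.6% of all genes, counting either direction) and none past the limma threshold. No gene of 8 in UDP-glucose and galactose metabolism was in the liver table.

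In BAT, Ugp2 was lower in every Cre library than in either control. Ugp2 encodes UDP-glucose pyrophosphorylase, which makes UDP-glucose, the glucosyl donor of glycogen synthesis, glycoproteins and glycolipids (chromosome 11, 21321138 to 21371201, minus strand). For Ugp2, controls 1 and 2 had 1.48 and 0.55, and Cre 4, 5 and 6 had -0.33, -1.83 and 0.21. The lowest value was in Cre 5, and the lower control lay 0.34 above the highest Cre library. The Cre mean was -0.65 ± 1.06 (SD, n = 3) and the control mean 1.01 ± 0.66 (SD, n = 2), a difference of -1.67 with a 95% interval from -4.40 to 1.07. It did not pass, with a limma adjusted p of 0.531 over the 2500 BAT genes, none of which passed (0%), while 285 or 11.4% had an unadjusted p under 0.05. The exact permutation p, two-sided, was 0.2 over the 10 possible groupings, which allow no value under 0.1. Groups did not overlap for 33.0% of all BAT genes, 28.7% with Cre lower and 4.36% with Cre higher, and the Cre mean was lower for 82.5%, so the pattern of Ugp2 was a common one in this table. Without control 1 the Cre mean was lower for 49.7% of genes, and 31.1% had all Cre libraries below control 2. The difference was -1.07 without Cre 5, the library in which 4 of 4 mitochondrially encoded genes in the table were lowest with a mean of -2.16, and -1.20 without control 1. Exons of Ugp2 share 78 bases with the transcript Gm12043 on the opposite strand.

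Other gluconeogenesis and glycogen genes in the BAT table were Got2 and Gpt2, mitochondrial aminotransferases, Pygm, the phosphorylase kinase subunits Phka1 and Phkg1, and Ppp1r3a. These 6 and Ugp2 all had groups that did not overlap, with Cre lower, in a table where 28.7% of all genes did. Their differences ran from -2.07 for Got2 to -1.63 for Pygm, with limma adjusted p-values from 0.363 to 0.531. Ppp1r3a, the targeting subunit of skeletal muscle, had 1.53 and 1.05 in the controls, with -1.40, -0.38 and -0.13 in Cre 4, 5 and 6. Pygm had 1.15 and 0.98, with -1.87, 0.17 and 0.0094 in the Cre libraries. The 6 genes were lowest in Cre 4 (39.1% of all BAT genes), unlike Ugp2. The 14 of 14 skeletal muscle genes in the table were also lowest in Cre 4, with means of 1.08 and 1.01 in the controls and -1.89, 0.12 and 0.092 in Cre, and their part in the glycogen genes was not tested. Of 7 genes of glycogen synthesis only Ugp2 was in the BAT table, and no glycogen regulator and no lysosomal gene was. Ugcg, which makes glucosylceramide from UDP-glucose, had 2.21 in control 1 and between -0.67 and -0.26 in the other libraries, and its groups overlapped.

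**Figure D5:**
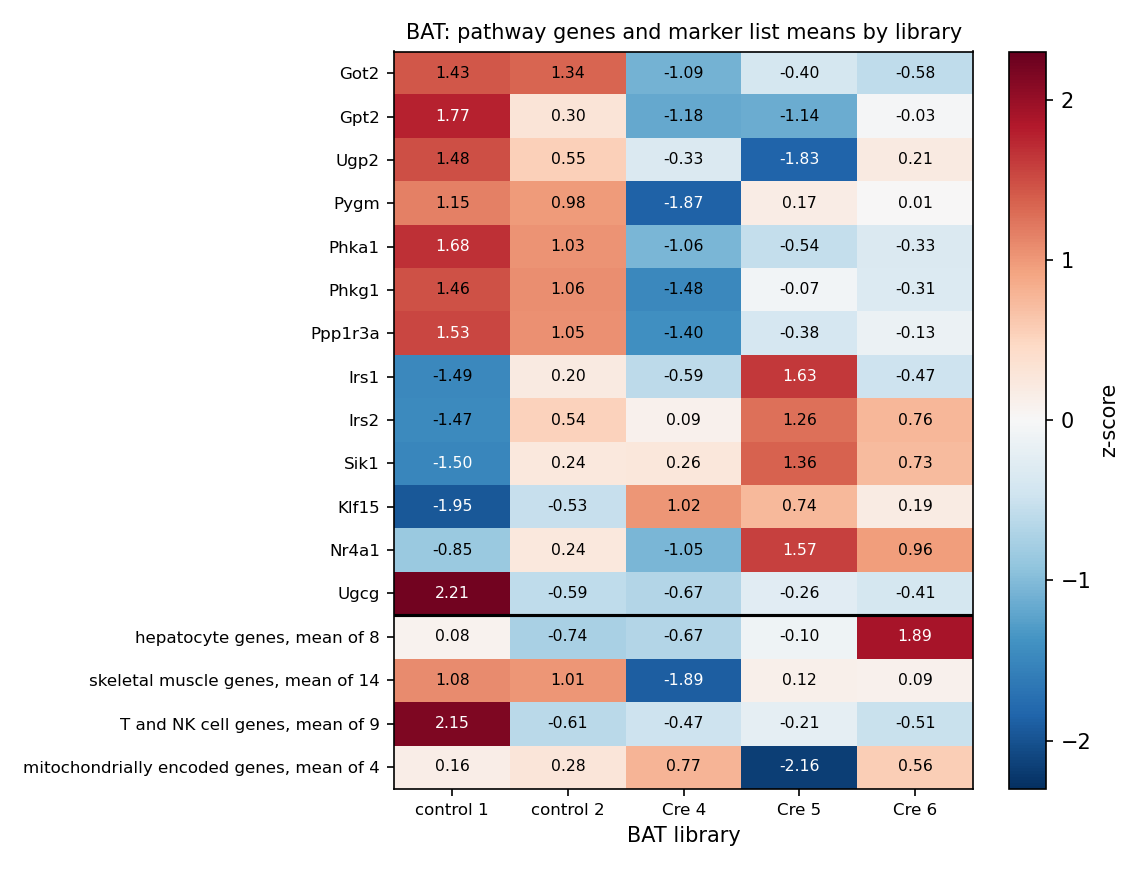
Z-scores (colour and printed values) of the 13 listed pathway genes in the 5 BAT libraries and, under the black line, mean z-scores of 4 marker lists. Pygm, Phkg1 and Ppp1r3a have their lowest value in Cre 4 as the skeletal muscle genes do, whereas Ugp2 has -1.83 in Cre 5.

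Genes with profiles most like those of the 9 were found as the nearest 2 by root mean square z-score difference, among 2153 named liver genes over 6 libraries and 1981 named BAT genes over 5 libraries. Nearest to Pcx were Psap (0.043), the precursor of lysosomal saposins, and Siae (0.082). Hal (0.090), the histidine-degrading enzyme, and Fzd1 (0.12) were nearest to Fbp1, and Abhd15 (0.092) and Steap3 (0.11) to Gaa. For Ppp1r3c they were Rtn4 (0.12) and Maob (0.15), and for Gbe1 Gpd2 (0.13), the mitochondrial glycerol-3-phosphate dehydrogenase, and Ces2e (0.14). Gys1 had Slc1a5 (0.24) and Cpt1b (0.33), the muscle-type carnitine palmitoyltransferase, as its nearest genes. Ppp1r3b had Cntfr (0.31) and Fbf1 (0.36), and Ppp1r3g had Cyp3a11 (0.37) and Osbpl5 (0.37). In BAT, Ugp2 was nearest to Rpl22l1 (0.13) and Usp14 (0.14).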

How the data were processed

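Poly(A) RNA-seq libraries were grouped by tissue and virus from their titles. The authors deposited a score for each gene in each library, which the values show to be a z-score per row: in liver each of the 2500 rows has a sum of 0 and a sum of squares of 6, within 1e-06. In BAT the squares sum to 6 in all 2500 rows once the square of their sum is added, so 6 libraries entered the scaling. Builds GRCm38, mm9 and mm10 and the tools DESeq2 1.20.0 and TopHat 1.3.3 are listed, with no role, in the submitters' processing notes. The choice of the 2500 genes and any log step are not given in the sources used here. Sheet titles speak of upregulated genes for liver and downregulated genes for BAT, so the genes may have been picked on these libraries, and the direction of a table is then no independent evidence. The liver values did not follow their title, as the Cre mean was lower for 60.4% of liver genes, and for 82.5% of BAT genes. Scaling removes level and depth, and 1 extreme library pushes the others together.

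Cre and control were compared per tissue in limma 3.58.1 (R 4.3.3) by a gene-wise linear model (two-sided, no variance moderation), adjusted by Benjamini-Hochberg over all genes with a threshold of 0.05, tested on simulated z-scores. Single differences also had an exact permutation test. P-values measure the spread between these libraries, which may be technical. The 9 genes, the 8 pathway lists and 12 marker lists, and the tests were chosen with earlier results of these data known. The text names all 9 genes, further list genes found (1 is not reported here), and the 2 nearest genes by z-score difference, leaving out predicted genes, clones and pseudogenes. Positions are from GENCODE M21 (GRCm38). Alternatives were moderation, ranks, group medians for the count of liver genes, leaving out libraries and leaving out genes tied at the lowest value. Python 3.11.15, pandas 2.3.3 and matplotlib 3.10.9 were used.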

Additional observations from a re-analysis of the deposited data

How the results depend on the processing

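Of 70 alternative estimates for the 9 genes (ranks and left-out libraries), 66 kept their direction and 4 turned. The other 27 alternatives (moderation, permutation, tied genes left out) share the reported difference, and none of the adjusted p-values passed. Gbe1 ran from -0.39 (without control 8) to 1.09 with 1 library left out and was -0.71 without both control 8 and Cre 12. Ppp1r3b ran from -0.43 (without control 9) to 0.89, and Ppp1r3g from -1.32 to 0.18 (without Cre 10). The mean over the 8 liver genes differed by 0.90, by 0.57 to 1.12 with 1 library left out, and by 0.25 without both control 8 and Cre 12. The cause was not tested. In BAT, 0 genes passed with all libraries (285 at an unadjusted limma p under 0.05, and 0 adjusted and 226 unadjusted with moderation), and between 0 and 433 with 1 library left out, the 433 without control 2, where control 1 alone is assumed to vary like the Cre libraries. In liver 0 passed under each alternative, with 69 to 222 at an unadjusted p under 0.05 when 1 library was left out. No paired analysis was possible because the groups share no replicate numbers. Depth is unknown, and the low number of libraries limits the precision.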

Other observations

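Genes that control gluconeogenesis through hormones and transcription were described beside the enzymes. Of 18 listed, 5 were in each table, and none passed the limma threshold. In BAT all 5 had a higher Cre mean, where 17.5% of all BAT genes did, and 2 had all Cre above both control libraries, where 4.36% did. The first share rests on control 1, without which the Cre mean was lower for 49.7% of all BAT genes. Irs1 then turned, with a Cre mean of 0.19 against 0.20 in control 2, and the others of the 5 stayed higher. The count of 2 became 4 without control 2 or without Cre 4, and it cannot fall when a library is left out. Klf15, a transcription factor of amino acid use and gluconeogenesis, had 1.02, 0.74 and 0.19 in Cre 4, 5 and 6, where controls 1 and 2 had -1.95 and -0.53, a difference of 1.89 at a limma adjusted p of 0.452. Sik1, a kinase that restrains CREB coactivators, had 0.26, 1.36 and 0.73 in Cre, and control 2, the nearer control at 0.24, lay just under Cre 4. Irs2, an insulin receptor adaptor, had -1.47 and 0.54 against 0.093, 1.26 and 0.76. Control 1 was lowest for 4 of the 5, Nr4a1 being the exception, and for 9.12% of all BAT genes. That library also had the high T and NK cell genes, with a mean of 2.15.

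In liver, 4 of the 5 had a higher Cre mean, where 39.6% of all liver genes did. The groups overlapped for all 5, whereas 22.6% of liver genes had non-overlapping groups, counting either direction. Irs2 had the largest positive difference of the 5, at 1.53, followed by Irs1, another insulin receptor adaptor, at 1.06. Both were lowest in control 7, and Irs2 peaked in Cre 10 (1.32), Irs1 in Cre 12 (1.79). Sik1 and Nr4a1, both induced by cyclic AMP signalling, were 2.23 and 2.17 in Cre 12 and at most -0.36 and 0.068 in the other libraries. Cre 12 is also the liver library with the high muscle and fat genes, whose part in these values was not tested. Lpin1, a phosphatidate phosphatase and transcriptional coactivator, had -1.71, 0.21 and -0.60 in Cre 10, 11 and 12, where controls 7, 8 and 9 had 0.11, 1.57 and 0.42.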
